A study of Mus musculus with 18 samples.

Results

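Nudt6, Rpe, Cops8, Nudel-pending and Oxr1 each had a kidney RNA probe brighter in mouse strains that resist anti-glomerular basement membrane antibody (anti-GBM) nephritis. Only significant probes measured in all strains, with each resistant strain's mean above every sensitive strain's, were ranked, and these rises were the 5 largest. The genes were selected on that measured rise, so the rise itself is given here as a description, with no test. They are 5 of the 34509 gene symbols in the table that holds B6 and NZW. The 5 genes had 8 of the 46643 probes there, and 6 of the 46147 probes in the table that holds BALB/C, DBA1 and 129/svj. Of these, 5 pairs, 1 for each gene, had the same search key in the pair of tables, with no other probe sharing it. There were 19886 such pairs in all, and the 5 are called the leading probes. Probe sequences were not compared, so the probes of a pair may differ, which limits comparisons across the tables. Total RNA had come from the kidney cortex of 15 mice aged 2 months, 3 of each strain, all challenged with anti-GBM antibody. B6 and BALB/C are the resistant strains, and DBA1, 129/svj and NZW the sensitive ones. No unchallenged mouse was part of the series, so strain and response to the antibody cannot be told apart. The time between challenge and sampling is not given in the sources used here.

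Nudt6 encodes a hydrolase of the nudix family, which cleaves nucleoside diphosphates linked to other groups, and is transcribed antisense to the growth factor gene Fgf2. Rpe encodes ribulose-phosphate epimerase, an enzyme of the non-oxidative branch of the pentose phosphate pathway. Cops8 encodes a subunit of the COP9 signalosome, which removes Nedd8 from cullin ubiquitin ligases. Nudel-pending is an old symbol of Ndel1, whose product binds Lis1 and the motor protein dynein, and NUDEL stands among the synonyms of Ndel1 in the table. Oxr1 encodes a protein with a TLDc domain that protects cells from oxidative stress. The table places Rpe and Cops8 on chromosome 1, Nudt6 on chromosome 3, Ndel1 on chromosome 11, and Oxr1 on chromosome 15. The leading probes of Nudel-pending and Oxr1 were designed on RIKEN clone sequences and carry no chromosome there.

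BeadChip signals are probe intensities, and a detection p-value sets each signal against the negative control beads of its array. A probe is called detected here at a detection p of 0.05 or less, as the mean over the arrays of a mouse. In the joint fit over all 15 mice, the leading probes were higher in the resistant strains by 3.55 (Nudt6), 3.09 (Rpe), 3.04 (Cops8), 2.44 (Nudel-pending) and 2.27 (Oxr1) on the log2 scale. The choice was made among called probes whose mean in each resistant strain exceeded that in every sensitive strain, and the next rise there was 2.25 for Klk1b8, so the edge between Oxr1 and Klk1b8 was narrow. All 5 were among the probes past an adjusted p of 0.05, as were 12% of the 6896 matched probes tested, a count that the choice itself fixed.

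The name on-off gene held by detection for only some of these probes and strains. All 5 leading probes were detected in all 6 resistant mice, each with a detection p listed as 0. Of the 5, Nudt6 and Rpe were detected in every B6 mouse and no NZW mouse, as were 0.772% of all probes in that table. Nudel-pending alone was detected in every BALB/C mouse and no DBA1 mouse, as were 0.371% of all probes. None of the 5 was detected in every BALB/C mouse and no 129/svj mouse, as were 0.329% of all probes. Oxr1 was detected in all 15 mice and was thus dimmer, not off, in the sensitive strains. With a detection p of 0.01 or less, the number of probes on in the resistant and off in the sensitive strain became 4 for B6 against NZW, 2 for BALB/C against DBA1, and 2 for BALB/C against 129/svj, beside 0.598%, 0.332% and 0.319% of all probes.

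**Figure D1:**
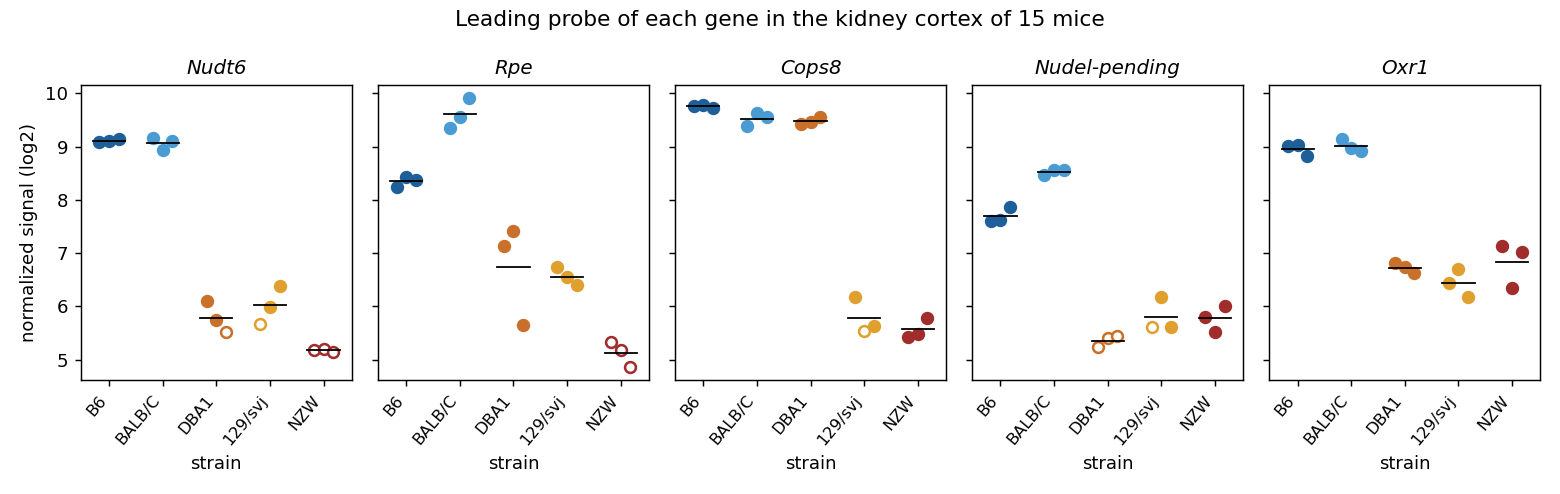
Normalized signal (log2, joint fit) of the leading probe of each gene in each of 15 mice, 3 per strain, with the strain mean as a line. Filled points were detected and open points were not. Nudt6 and Rpe have 3 open points in NZW, Nudel-pending has 3 in DBA1, and Cops8 in DBA1 lies at the level of BALB/C.

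Nudt6 was bright in both resistant strains and near background in all sensitive mice. The deposited signals of probe ILMN_1253773 were 748, 761 and 680 in B6 mice and 95.1, 93.0 and 84.8 in NZW mice, where the detection p ran from 0.130 to 0.177. In the other table the Nudt6 signals were 629, 535 and 613 in BALB/C, 182, 172 and 138 in DBA1, and 156, 177 and 193 in 129/svj. No sensitive mouse overlapped the resistant mice of its table. In DBA1 and in 129/svj, 2 of the 3 mice passed the detection threshold, so a weak signal was present there. For 129/svj mouse 1 the call rests on the averaging, since its arrays had a detection p of 0.032 and 0.092. After background correction B6 was at least 17.0-fold higher than NZW, with means of 9.41 and 5.04 on the log2 scale, and without it at least 7.37-fold (9.54 and 6.49). BALB/C was 2.99 (SE 0.16) above the mean of DBA1 and 129/svj on the log2 scale, and 1.78 without the correction. Over all strains the order of the joint log2 levels was B6 (9.11 ± 0.04, SD, n = 3), BALB/C (9.07 ± 0.12), 129/svj (6.02 ± 0.36), DBA1 (5.79 ± 0.29) and NZW (5.18 ± 0.02). B6 and BALB/C overlapped, as did 129/svj and DBA1. Each strain is in only 1 table, so orders and overlaps across tables, here and for the next genes, depend on normalization. NZW was not above background, so its place below the other sensitive strains is not a measured rank. Nudt6 had no other probe in either table. Fgf2, its antisense partner, had 1 probe in each table, and it was detected in 0 of 6 and 0 of 9 mice.

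Rpe was bright in the resistant strains, weak in DBA1 and 129/svj, and undetected in NZW. The signals of the leading probe ILMN_1255006 were 442, 499 and 419 in B6 mice and 102, 92.2 and 74.1 in NZW mice, with a detection p of 0.061 to 0.518 in NZW. In the other table the Rpe signals were 698, 746 and 949 in BALB/C, 250, 278 and 143 in DBA1, and 202, 201 and 195 in 129/svj. DBA1 mouse 3 was dim beside the other 2 DBA1 mice, and its detection p of 0.044 was just inside the threshold. After background correction B6 was at least 9.91-fold higher than NZW, with log2 means of 8.63 and 5.00, and without it at least 4.56-fold (8.85 and 6.45). BALB/C exceeded the mean of DBA1 and 129/svj by 2.80 (SE 0.31) on the log2 scale, and by 1.90 without the correction. The joint log2 levels ran from BALB/C (9.60 ± 0.28, SD, n = 3) and B6 (8.35 ± 0.10) to DBA1 (6.74 ± 0.95), 129/svj (6.56 ± 0.16) and NZW (5.13 ± 0.24). BALB/C and B6, read in different tables, did not overlap, while DBA1 and 129/svj did. NZW was not above background and has no measured rank against these. The second Rpe probe, ILMN_2633770, gave signals of 48.2 to 68.1 and was detected in 0 of 6 mice, B6 included. It showed no Rpe signal in the strain where the leading probe was bright. Undetected in both strains, it gave no reading of the strain difference. That second probe has no row matched by key in the other table.

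Cops8 was bright in the sensitive strain DBA1 as well as in both resistant strains. The signals of probe ILMN_1218868 were 1159, 1173 and 1019 in B6 mice and 106, 105 and 107 in NZW mice. NZW mice passed the detection threshold narrowly, with a detection p of 0.022 to 0.047. In the other table the Cops8 signals were 710, 775 and 805 in BALB/C, 730, 727 and 727 in DBA1, and 178, 161 and 156 in 129/svj. DBA1 fell inside the range of BALB/C, and 129/svj was far below both. B6 exceeded NZW by 4.62 (SE 0.13) on the log2 scale, or 24.7-fold, and by 3.44, or 10.8-fold, without background correction. At a detection p of 0.01 or less no NZW mouse was detected. The joint log2 levels were 9.76 ± 0.03 (SD, n = 3) in B6, 9.52 ± 0.12 in BALB/C, 9.48 ± 0.07 in DBA1, 5.78 ± 0.34 in 129/svj and 5.57 ± 0.19 in NZW. BALB/C overlapped DBA1, and 129/svj overlapped NZW, the latter across tables. Cops8 had no other probe, so no second reading of this gene was at hand.

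Nudel-pending was the dimmest of the 5 leading probes in B6. The signals of probe ILMN_2546624 were 302, 315 and 315 in B6 mice and 124, 106 and 116 in NZW mice, all of which were detected. In the other table the Nudel-pending signals were 444, 449 and 464 in BALB/C, 143, 159 and 135 in DBA1, and 154, 184 and 155 in 129/svj. None of the 3 DBA1 mice and 2 of the 3 129/svj mice were detected. For 129/svj mouse 1 this rests on the averaging, since its arrays had a detection p of 0.038 and 0.106. After background correction BALB/C was at least 6.50-fold higher than DBA1, with log2 means of 8.38 and 5.41, and without it at least 2.78-fold (8.80 and 7.20). B6 was 4.74-fold higher than NZW (log2 difference 2.24, SE 0.16), and 2.70-fold without the correction. The joint log2 levels ran from BALB/C (8.53 ± 0.05, SD, n = 3) and B6 (7.70 ± 0.15) to 129/svj (5.81 ± 0.33), NZW (5.78 ± 0.24) and DBA1 (5.36 ± 0.11). BALB/C and B6 did not overlap, while 129/svj and NZW did, both across tables. DBA1 was not above background, so its place at the end is not a measured rank.

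A probe filed under the current symbol Ndel1 gave another reading of this gene, and only in the table of B6 and NZW. It is no member of the 5 genes by symbol, but the name of the RIKEN clone behind the Nudel-pending probe stands among the synonyms of Ndel1. Its signals were 3321, 3318 and 2807 in B6 mice and 3515, 3810 and 3606 in NZW mice. Ndel1 was thus bright in both strains, and B6 minus NZW was -0.12 on the log2 scale, with a 95% interval of -0.40 to 0.17 (adjusted p = 0.56, limma). The Nudel-pending probe, chosen for its rise, was 2.24 higher on that scale, or 4.74-fold, in the same B6 mice. The difference between these probes was not tested.

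Oxr1 was detected in every mouse and differed between strains by level. The signals of the leading probe ILMN_1230816 were 714, 724 and 548 in B6 mice and 240, 148 and 178 in NZW mice. In the other table the Oxr1 signals were 619, 544 and 547 in BALB/C, 223, 220 and 189 in DBA1, and 186, 209 and 182 in 129/svj. The resistant mice were above all sensitive mice of their table. B6 was 5.01-fold higher than NZW (log2 difference 2.33, SE 0.22), and BALB/C was 4.90-fold higher than the mean of DBA1 and 129/svj (2.29, SE 0.14). Without background correction these were 3.60-fold and 2.77-fold. The joint log2 levels were 9.01 ± 0.12 (SD, n = 3) in BALB/C, 8.96 ± 0.12 in B6, 6.84 ± 0.42 in NZW, 6.73 ± 0.10 in DBA1 and 6.44 ± 0.26 in 129/svj. Each of these neighbours in order overlapped except B6 and NZW, with BALB/C and B6, and NZW and DBA1, compared across tables.

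The other Oxr1 probe that was detected did not show this difference. ILMN_2697390 gave signals of 185, 188 and 157 in B6 mice and 258, 157 and 136 in NZW mice, and was detected in all 6. Its difference of B6 minus NZW was 0.01 on the log2 scale, with a 95% interval of -0.54 to 0.57 (adjusted p = 0.98, limma), and the strains overlapped. The leading probe, chosen for its rise, was at 2.33, and the difference between these probes was not tested. ILMN_2639491, with signals of 69.0 to 80.4, was detected in 0 of 6 mice. Both share a search key, and the row of the other table with that key was detected in 0 of 9 mice. Which of the 2 probes that row corresponds to cannot be told from the key. Undetected in resistant and sensitive mice alike, ILMN_2639491 and that row gave no reading of the strain difference.

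**Figure D2:**
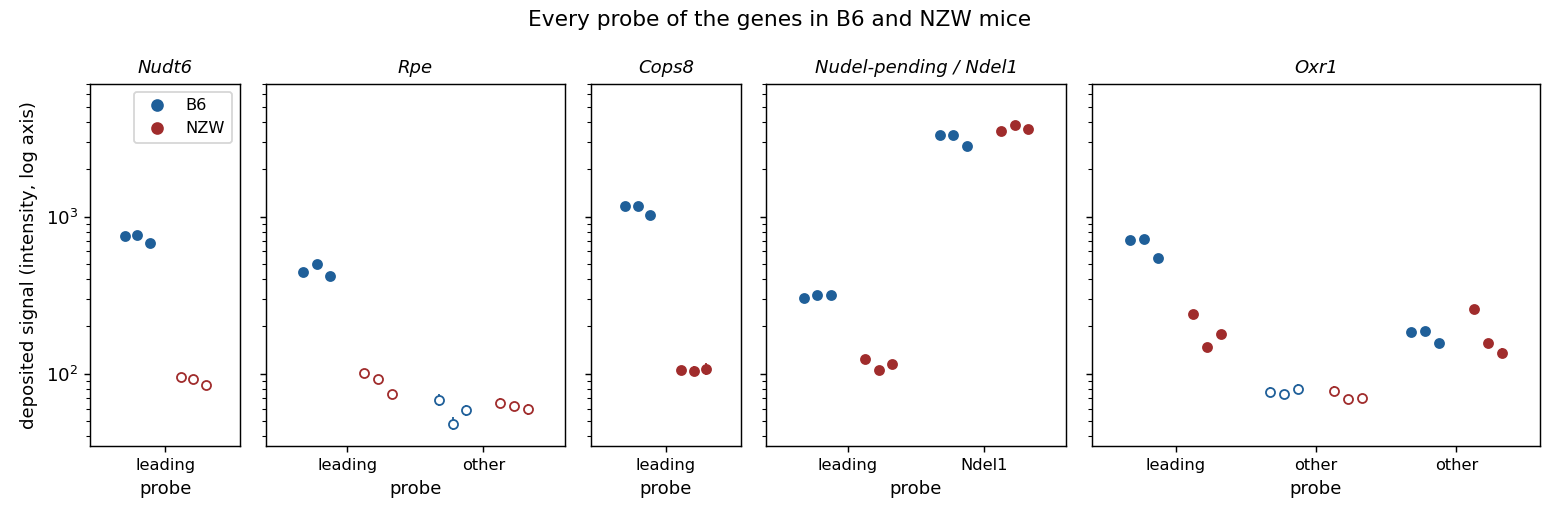
Deposited signal (intensity, log axis) of every probe of the 5 genes, and of the probe filed under Ndel1, in 3 B6 and 3 NZW mice. Bars are the standard error over beads, mostly smaller than the points, and open points were not detected. The leading probes separate the strains, while the Ndel1 probe and the second detected Oxr1 probe overlap or nearly overlap.

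Across the genes with a second reading in B6 and NZW, none of these readings repeated the leading probe's difference. Both other probes detected in B6 and NZW, of Ndel1 and of Oxr1, did not pass an adjusted p of 0.05 (limma), against 18.8% of the 16766 probes tested in that table. The 5 leading probes did pass it there, and in BALB/C against DBA1 and 129/svj, where 5.99% of 15818 probes did. Both comparisons are parts of the contrast that chose the genes, so these calls are no separate result. Probe sequences were not used here, and the part of sequence differences between strains under the probes, or of separate transcripts, was not tested. A signal in bulk cortex also cannot tell fewer cells of a type from less RNA per cell.

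The bead data behind the leading probes were dense. Each leading probe was read on 26 to 69 beads per array, and the standard error over beads was 2.10% to 8.90% of the signal, with a median of 4.77%. For the 3 mice with a second array, the larger of the 2 signals was 1.02 to 1.53 times the smaller over 15 pairs before normalization, with a median of 1.14.

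The comparison of DBA1 with 129/svj, both sensitive, asks whether the dim strains were alike. Their difference was not used in choosing the genes, but both means had to lie below those of the resistant strains. Likeness of DBA1 and 129/svj was thus partly set by the choice. Cops8 was the only leading probe past the threshold, as were 4.48% of the 15818 probes tested. Cops8 was 3.48 higher in DBA1 on the log2 scale (SE 0.17, adjusted p = 1e-06, limma), or 11.2-fold. Without background correction the difference was 2.15, or 4.45-fold (adjusted p = 6.2e-07, limma). No 129/svj mouse was detected at a detection p of 0.01 or less, as the mean over its arrays. For mouse 1 this rests on the averaging, since its arrays had a detection p of 0.0031 and 0.045. The other leading probes did not pass. Their differences were -0.42 for Nudel-pending (95% interval -0.81 to -0.04, adjusted p = 0.3, limma), 0.28 for Oxr1 (-0.09 to 0.65), 0.19 for Rpe (-0.61 to 0.98) and -0.19 for Nudt6 (-0.61 to 0.22). The interval of Rpe was the widest of these, and DBA1 mouse 3 was dim for Rpe beside the other DBA1 mice.

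**Figure D3:**
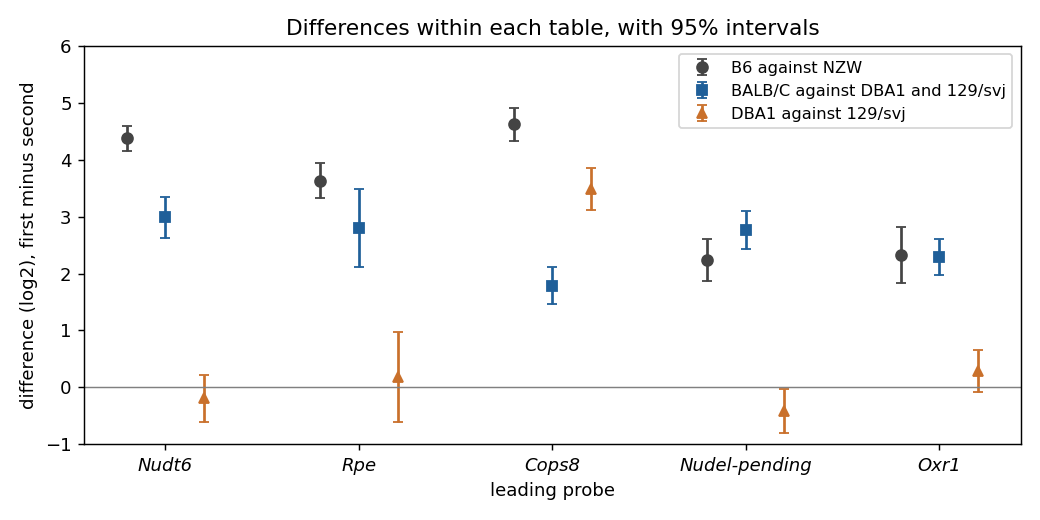
Difference of the leading probe of each gene (log2, points) with its 95% interval (bars) for B6 minus NZW, BALB/C minus the mean of DBA1 and 129/svj, and DBA1 minus 129/svj, each from the fit of its own table. The B6 minus NZW and BALB/C differences are parts of the contrast that chose the genes, so their distance from 0 is only a description. Nudt6 and Rpe were not detected in NZW, so their B6 minus NZW points depend on background, which the bars do not cover. Cops8 alone has a DBA1 minus 129/svj difference (3.48) far from 0.

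The sizes of the rises in the pair of tables were set against each other in the joint fit, as BALB/C minus the mean of DBA1 and 129/svj, less B6 minus NZW. Of the 5 leading probes, 3 passed the threshold in this test of the difference, against 10.3% of the 6896 matched probes. For Cops8 the rise was smaller in BALB/C by 2.30 on the log2 scale (value -2.30, SE 0.21, adjusted p = 2.4e-06, limma), and its comparison strains include the bright DBA1. For Nudel-pending the rise was larger in BALB/C by 1.03 (SE 0.22, adjusted p = 0.0059, limma), with DBA1 undetected. That call was lost with 75th percentile scaling (0.61, adjusted p = 0.087, limma) and with each table normalized on its own (0.59, adjusted p = 0.11, limma). For Nudt6 it was -0.77 (SE 0.23, adjusted p = 0.044, limma), a call lost in 16 of 22 alternative fits, and NZW was undetected. For Oxr1 it was 0.31 (95% interval -0.22 to 0.84) and for Rpe -0.27 (-1.19 to 0.66), neither past the threshold.

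Genes that work with each of the 5 were counted from lists of related genes. Most of their probes did not pass the threshold, and those that did lay in B6 against NZW, apart from 1 Nudix probe. There, over all 16766 probes, 18.8% were called and the median difference was -0.04 on the log2 scale. In the table of the other strains, the probes tested were 5 Nudix, 6 pentose phosphate, 7 COP9 and cullin, and 6 Lis1 and dynein probes, since names reach that table only through shared keys. In BALB/C against DBA1 and 129/svj none of these passed the threshold.

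Among Nudix genes and Fgf2, 18 probes of 16 genes were tested in B6 against NZW, of which 4 were higher and 1 lower in B6, beside 18.8% called over all probes, with a median of -0.09. Nudt1, which clears oxidized nucleotides, was detected in 3 of 3 B6 and 0 of 3 NZW mice and so passed the filter through B6 alone. B6 was at least 14.2-fold higher for Nudt1 after background correction and at least 6.28-fold without it. Both Nudt19 probes were higher, by 1.32 (SE 0.12) and 1.11 (SE 0.13) on the log2 scale, and Nudt11 by 0.68 (SE 0.16). In DBA1 against 129/svj the single call was Nudt7, a coenzyme A hydrolase of peroxisomes, at -0.78 (SE 0.19, adjusted p = 0.049, limma).

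Among pentose phosphate pathway genes, 14 probes of 10 genes were tested in B6 against NZW, and 2 were higher in B6, no larger a share than the 18.8% called over all probes, with a list median of 0.18. Both belong to Pgls, the lactonase of the oxidative branch, and rose by 0.87 (SE 0.11) and 0.56 (SE 0.11). In DBA1 against 129/svj none of 6 probes passed.

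Among genes of the COP9 signalosome and cullins, 25 probes of 16 genes were tested in B6 against NZW, 2 higher and 3 lower in B6, near the 18.8% called over all probes, with a median of 0.03. Cops5, the subunit that carries the deneddylase activity, was 2.74 higher in B6 (SE 0.10, adjusted p = 3.7e-07, limma). The 2 called probes of Cops7a, another subunit, moved in opposite directions, by 1.60 (SE 0.13) and by -0.56 (SE 0.10). Cul4a, a cullin, was at -0.55 (SE 0.14). In DBA1 against 129/svj, where Cops8 was called, none of 7 list probes passed.

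Among Ndel1 partners, 27 probes of 19 genes were tested in B6 against NZW, of which 3 were higher in B6 and none lower, a smaller share than the 18.8% called over all probes, with a median of -0.01. They were the dynactin subunits Dctn4 at 1.10 (SE 0.11) and Dctn1 at 0.78 (SE 0.13), and the dynein light intermediate chain Dncli2 at 0.41 (SE 0.12). None of 6 probes passed in DBA1 against 129/svj. Of the 4 TLDc genes listed beside Oxr1, 2 had a probe in the table of B6 and NZW and 1 in the other, and none was tested for want of detection.

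Genes lying within 1 Mb of the 5, in the RefSeq annotation of GRCm38.p6, moved in both directions. In B6 against NZW, 84 neighbouring probes were tested, of which 7 were higher and 12 lower in B6, beside 18.8% called over all probes. In BALB/C against DBA1 and 129/svj, 1 of 31 was called, beside 5.99% of all tested probes. In DBA1 against 129/svj 1 of 31 was called, beside 4.48%. Of these 31 probes, 21 lay near Ndel1, 8 near Cops8 and 2 near Nudt6, and none near Rpe or Oxr1 was tested. Near Nudt6, 1 of 5 tested probes was called in B6 against NZW, near Rpe 2 of 4, and near Oxr1 0 of 1, with no difference of 1 or more on the log2 scale. Near Cops8, 7 of 20 were called, with A930015N15Rik (listed under Scly in RefSeq) at 1.48 (SE 0.12) and Asb1 at -1.02 (SE 0.13). Other probes of these genes were at 0.80 (called) and -0.14 (not called) for Scly and at 0.31 (not called) for Asb1. None of the 8 tested probes near Cops8 passed in DBA1 against 129/svj. Near Ndel1, 9 of 54 were called, with Fxr2 at 2.34 (SE 0.12), Sat2 at 1.95 (SE 0.13) and Per1 at -1.54 (SE 0.18). A second probe of Fxr2, at 0.25, and of Sat2, at -0.27, did not pass, although detected in all 6 mice. A probe of Fxr2, which encodes an RNA-binding protein, also rose in BALB/C against the mean of DBA1 and 129/svj, by 1.70 (SE 0.13, adjusted p = 2.7e-05, limma). The call near Ndel1 in DBA1 against 129/svj was Tnfsf12-tnfsf13 at -1.20 (SE 0.17).

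**Figure D4:**
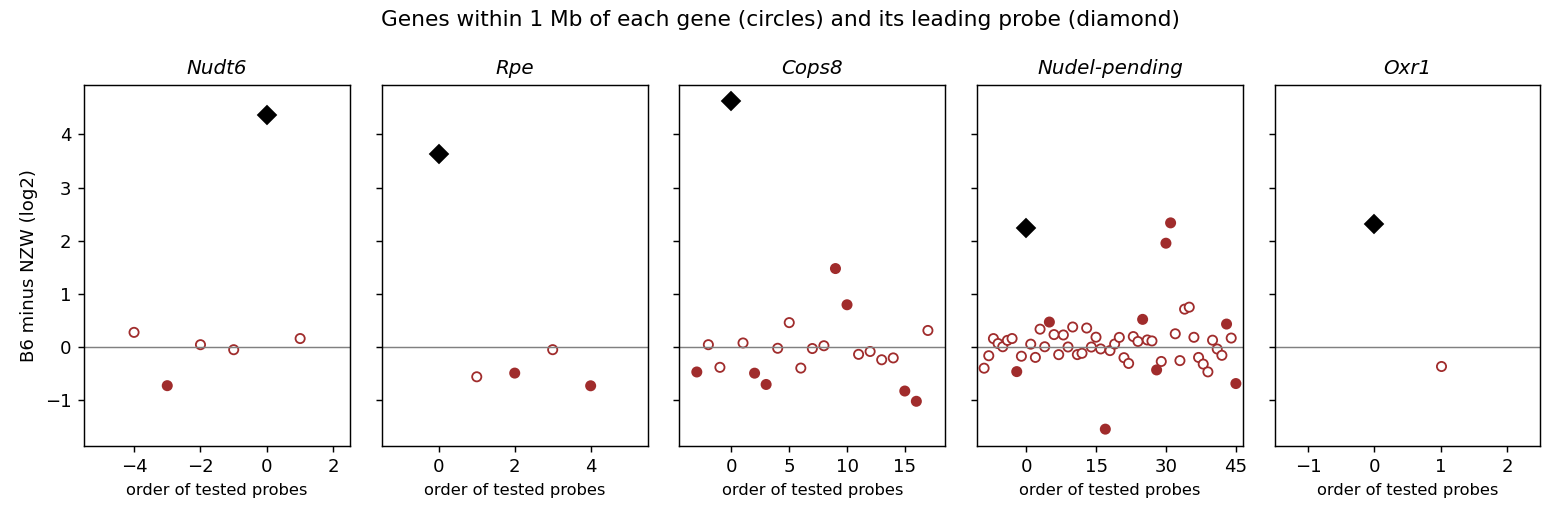
B6 minus NZW (log2) of tested probes of genes within 1 Mb of each gene, in their order along the chromosome, with the gene's leading probe as a diamond at 0. Filled circles passed an adjusted p of 0.05. Near Nudel-pending, 1 of 2 probes of Fxr2 (2.34) and of Sat2 (1.95) lies near the height of the diamond, while the second ones lie at 0.25 and -0.27, and elsewhere the circles stay below it.

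Over the 15 mice the leading probes of Nudt6, Rpe, Nudel-pending and Oxr1 had pairwise Pearson correlations of 0.836 to 0.951, and those with Cops8 were 0.558 to 0.744. These correlations are descriptive, since the mice share strains and tables and the probes were chosen for a common contrast. Among all other tested probes, Tmem126b, a mitochondrial complex I assembly factor, was the most like Nudt6 (r = 0.964), Oxr1 (0.962), Nudel-pending (0.940) and Rpe (0.921) over 15 mice. Next came Rnd3 (0.927) and Hexa (0.922) for Nudt6, Hsd17b14 (0.952) and Klk1b8 (0.934) for Oxr1, H2-Q6 (0.931) and Klk1b8 (0.927) for Nudel-pending, and D430030C18Rik (0.911) and Ccdc50 (0.906) for Rpe. The probe most like Cops8 was Spink8, a protease inhibitor gene, with r = 0.982 over 15 mice. Its joint log2 means of 8.91 in B6, 9.66 in BALB/C, 8.99 in DBA1, 4.65 in 129/svj and 4.75 in NZW had the same bright and dim strains as Cops8. It was followed by 4933427D14Rik (0.957) and 5730410E19Rik (0.955).

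Markers of the labelled tissue were present, with 11 of 12 proximal tubule probes detected in all B6 and NZW mice and 6 of 7 in all mice of each other strain. Across arrays, 30.5% to 36.4% of all probes were detected. In B6 against NZW, 3 of 11 tested proximal tubule probes and 2 of 6 podocyte probes were lower in B6, and the summed proximal tubule signal was 54546 to 63267 in B6 and 65670 to 71714 in NZW. The podocyte sum was 9414 to 10369 in B6 and 8941 to 10921 in NZW. The tubule injury gene Havcr1 was at -2.77 (SE 0.60) and Lcn2 at 1.80 (SE 0.46). No collecting duct probe of 3 and no macrophage or lymphocyte probe of 4 passed, the latter with a median of 0.60 on the log2 scale. The summed macrophage and lymphocyte signal was 769 to 1852 in B6 and 684 to 779 in NZW. The summed injury signal was 2086 to 6086 in B6 and 1761 to 3184 in NZW. In BALB/C against DBA1 and 129/svj, 3 of 6 proximal tubule probes passed, 2 higher and 1 lower, and in DBA1 against 129/svj 1 of 6. In either comparison no podocyte probe of 2, collecting duct probe of 2, injury probe of 1, or macrophage or lymphocyte probe of 1 passed. So few probes say little about these cell types in that table. The part of these cell types in the differences of the 5 genes was not tested.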

How the data were processed

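Both tables of the authors were used, 1 with 12 arrays of BALB/C, DBA1 and 129/svj and 1 with 6 arrays of B6 and NZW. Per the file headers they hold the deposited signal intensity of each probe, the bead count behind it, its standard error over beads and its detection p-value. The authors exported them from BeadStudio without normalization or background subtraction. Strain is nested in table, so levels across tables depend on normalization, and tests were made within tables or on differences between within-table differences. Genes and lists were chosen with earlier results of these data known.

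Signals were corrected with normexp from detection p-values (offset 16), quantile normalized, and taken to log2 in limma 3.58.1 (R 4.3.3). In each strain of the larger table, mouse 1 had a second array, 3 in all, which was averaged with its first, detection p included. The column titles number these arrays as a further mouse. The sample descriptions call them replicates of mouse 1, and this was followed. Probes detected in at least 3 mice were fitted with lmFit and eBayes, with Benjamini-Hochberg adjustment over all of them. The joint fit used probes with a key unique to both tables. The table without symbols took names through shared keys (23100 probes). RefSeq symbols or synonyms matched 34181 of 46643 probes. A fold against a strain with no detected mouse is a lower bound, from the higher of the lowest detected signal and the probe's own signal on each array, on the scale of each table. All probes of the genes were reported, with up to 4 called probes per related list and comparison by size, neighbours called at 1 or more on the log2 scale, and 3 most correlated probes. Ndel1, Fgf2, Klk1b8 and the joint levels of Spink8 were added after their values were seen. Fits were tested on simulated data. Replicates were taken as separate mice from the labels, and p-values measure the spread among 3 per strain. That number limits the precision.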

Additional observations from a re-analysis of the deposited data

Results flagged for a closer look

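Of the 5 genes, 3 differed between the tables in the size of their rise, by the test of the difference between the within-table differences in the joint limma fit. The value was -2.30 for Cops8, 1.03 for Nudel-pending and -0.77 for Nudt6 on the log2 scale, BALB/C minus the mean of DBA1 and 129/svj less B6 minus NZW. Cops8 kept its call in all 22 alternative fits. Nudel-pending lost it in 2, with 75th percentile scaling (0.61, adjusted p = 0.087, limma) and with each table normalized on its own (0.59, adjusted p = 0.11, limma). Nudt6 lost it in 16, with adjusted p from 0.00034 to 0.11 over all 22 (limma).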

How the results depend on the processing

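No value of the 5 genes or of Ndel1 reversed a call under the alternatives that tested it, and 461 of 479 values kept their side of the threshold, though uncalled differences such as that of Oxr1 probe ILMN_2697390 (-0.17 to 0.33) crossed 0. The other 18 lost the call in the difference between the within-table differences, 16 for Nudt6 and 2 for Nudel-pending. Many of the 461 belong to leading probes in comparisons that the choice used, where the choice largely set the call. They are thus no independent sign of stability. Nudt6 and Rpe were not tested in B6 against NZW with probes detected in every mouse or without any 1 of the B6 mice, where they failed the filter. The number of called probes fell with the filter to probes detected in every mouse, to 576 for BALB/C against DBA1 and 129/svj, 368 for DBA1 against 129/svj, 412 for resistant against sensitive strains and 381 for the difference between differences, with fewer probes tested. The methods' t-test after Benjamini-Hochberg called 1852 probes for B6 against NZW and 218 for DBA1 against 129/svj. The joint fit over matched probes called 678 for B6 against NZW, 59.4% of them higher in B6. With 75th percentile scaling that share was 37.3%, against 49% in the reported fit, and the median of all probes moved to -0.129 (0.113 in the difference between differences). Leaving out each mouse gave 1724 (without B6 mouse 2) to 2626 calls for B6 against NZW, and 1872 and 1911 without B6 mice 1 and 3. It gave 454 (without mouse 2 of BALB/C; 522 and 561 without mice 1 and 3) to 1067 for BALB/C against DBA1 and 129/svj, 426 (without 129/svj mouse 1; 457 without DBA1 mouse 2) to 731 for DBA1 against 129/svj, 581 to 936 for resistant against sensitive strains, and 466 (without B6 mouse 2) to 834 for the difference between differences. Each such fit had fewer mice. With the replicate number as a block the calls were 2620, 929, 678, 785 and 681 in that order, and Nudt6 lost its call in the last (adjusted p = 0.07, limma). Mice of the same number deviated together with r of -0.259 to 0.387, and mice of different numbers with r of -0.419 to 0.4. No pairing by number stood out, but so few mice cannot exclude one. Signals near background limit every value of the dim strains.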
